A study of Homo sapiens with 12 samples.

Results

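SNU308 is an established human gallbladder cancer cell line, and the data described here are the transcriptome of its control cells. The members were chosen by their label alone: the 4 samples labelled SNU308_NTC, replicates 1 to 4, of 12 RNA-seq samples in all. NTC stands for a non-targeting control siRNA, which the cells received by transfection at 25 nM, with RNA taken at day 3; both other groups of the series, siCEACAM6_2 and siCEACAM6_3, carried siRNAs against CEACAM6 and were not compared here. The design text calls the replicates individual experiments, and all came from a single cell line, so their spread is that of repeated cultures of SNU308 and not of gallbladder tumours. No untransfected sample was analysed here, so the levels are those of transfected cells and the part of the transfection in them was not tested. Levels are given as TPM, a transcript abundance scaled for transcript length and for depth, which therefore allows genes to be compared with each other within these cells.

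Gallbladder carcinoma arises from the columnar epithelium that lines the gallbladder. Such epithelium is built on the simple keratins, is sealed by claudin and cadherin junctions, and carries a glycocalyx of mucins and of CEACAM proteins, which are immunoglobulin-like adhesion molecules on the apical membrane. Gallbladder carcinomas can also take on squamous features, and the biliary lineage shares transcription factors with the neighbouring liver, pancreas and foregut.

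The total estimated count was 21874146 to 22059456 per replicate. Of 60617 genes, 15883 (26.2%) had a mean of at least 1 TPM, the level taken here as detected, among them 12426 of 19892 protein-coding genes (62.5%). At least 10 TPM was reached by 38.8% of protein-coding genes and at least 100 TPM by 5.81%. The 37 mitochondrially encoded genes held 22.7% to 24.2% of all TPM and the genes of ribosomal proteins 10.4% to 11.1%. Across the 15883 detected genes, Spearman's rho between replicates was 0.980 to 0.982, a description across genes that share libraries and lengths.

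The 4 genes given as markers of these cells were all strongly expressed. KRT19, a keratin of simple and ductal epithelium, stood at 3119, 3323, 3300.2 and 3153 TPM in replicates 1 to 4, a mean of 3224 ± 103 (SD, n = 4), and ranked 28 among all genes. EPCAM, an epithelial cell adhesion molecule, stood at 239, 247, 232 and 235 TPM, a mean of 238 ± 6.61. CEACAM5 was at 769.7, 821, 891 and 940.1 TPM and CEACAM6 at 279, 303, 302 and 321 TPM. The label of an epithelial line therefore held on each of the given markers in every replicate, with no replicate below 279 TPM for KRT19, CEACAM5 or CEACAM6.

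The simple epithelial keratins, the intermediate filament proteins of single-layered epithelia, were among the most abundant messages of the cells. Of 7 members, 6 were detected, against 62.5% of all protein-coding genes, and 4 were above 1000 TPM, as were 132 of all 60617 genes. KRT7, which pairs with KRT19 in biliary and pancreatic ducts, was at 1832, 1902, 2038 and 2136 TPM. KRT8 was at 1531 ± 57.1 TPM and its filament partner KRT18 at 1042 ± 41.1 TPM. The 4 leading keratins held 99.7% of the summed TPM of the list, and the replicate values of no neighbouring pair of detected members overlapped, from KRT19 down to KRT80 at 17.9 ± 0.386 and KRT23 at 2.87 ± 0.274 TPM. KRT8 exceeded KRT18 by nearly the same factor in each replicate, 1.46 to 1.49. Of the 31-base stretches of their transcripts, 25.8% for KRT8 and 36.7% for KRT18 also occur in other genes. For KRT8 the foremost was KRT8P3 (8.87%), which was at 0.125 TPM, and for KRT18 it was KRT8 (14.8%). How far the factor of KRT8 over KRT18 depends on the division of shared reads was not tested. In contrast, KRT20, the keratin of intestinal epithelium, was at 0.106, 0.212, 0.138 and 0.247 TPM and lay below the detection level in all replicates.

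Genes of epithelial junctions and identity were detected nearly throughout. The list held 38 members, of which 37 were detected (97.4%, against 62.5% of all protein-coding genes). Of the 38, 15 reached 100 TPM, a level reached by 5.81% of all protein-coding genes. Among the highest were the protease inhibitor SPINT2 at 576 ± 19.6 and plakoglobin (JUP), which links cadherins and desmosomes to the cytoskeleton, at 560.3 ± 8.84 TPM. Among tight junction claudins, CLDN4 was at 475, 446, 496 and 511 TPM, CLDN7 at 195 ± 7.07 and CLDN1 at 181 ± 7.72 TPM. E-cadherin (CDH1), the adherens junction protein of epithelia, stood at 118, 122, 107 and 113 TPM and P-cadherin (CDH3) at 148 TPM by mean. ELF3, an epithelial ETS transcription factor, was at 265 ± 15 TPM. The single member below detection was CLDN2, the pore-forming claudin of leaky epithelia, at 0.11 TPM.

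Beside these, SNU308 expressed a part of the squamous and basal programme. Detected members numbered 20 of 30 (66.7%), a share close to the 62.5% of all protein-coding genes. In all, 7 of the 30 were above 100 TPM, a level reached by 5.81% of all protein-coding genes. KRT6A, a keratin of activated and stratified epithelium, was at 1039, 1011, 1082 and 1046 TPM, a range that overlapped that of KRT18, whose values were 985, 1042, 1062 and 1079.6. KRT4 and KRT13, the suprabasal pair of non-cornified stratified epithelium such as the oesophagus, were at 916 ± 52.9 and 569 ± 50.9 TPM, and KRT17, a keratin of basal and injured epithelium, at 312 ± 39.4 TPM. TP63, the transcription factor that maintains basal cells, was at 107, 112, 106 and 112 TPM and SOX2, a squamous and foregut progenitor factor, at 50.1, 50, 43.6 and 38.4 TPM. DSG3, a desmosomal cadherin of stratified epithelium, was at 22.5 ± 1.79 TPM.

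Basal keratins were uneven. KRT15 was at 124, 116, 110.1 and 101 TPM, overlapping with TP63, while the pair KRT5 and KRT14 was low. KRT5 stood at 2.38, 2.08, 2.09 and 1.46 TPM and KRT14 at 4.71, 4.3, 6.27 and 6.62 TPM, so KRT6A exceeded KRT5 by 437 to 716 times in the 4 replicates and KRT13 exceeded KRT14 by 78 to 134 times. Genes of cornifying epithelium were uneven too. Of cornified envelope proteins, SPRR1A was at 12.5, 22.9, 19.5 and 17.3 TPM, envoplakin (EVPL) at 18.2 ± 1.01 and periplakin (PPL) at 64.8 ± 2.46 TPM, whereas involucrin (IVL) was at 0.00724 TPM. The suprabasal keratin KRT10 was at 31.5 ± 2.25 and the serpin SERPINB13 at 24.4 ± 2.2 TPM. The assignment within the KRT6 genes is uncertain, because 44.1% of all 31-base stretches of KRT6A transcripts also occur in other genes, foremost KRT6C. As a sum, KRT6A, KRT6B and KRT6C came to 1018 to 1089 TPM. In bulk RNA, a message present in few cells and a message present at a low level in every cell cannot be told apart, so these data do not show whether squamous and simple genes were expressed in the same cells.

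Markers of the biliary lineage were uneven. Of 34 members, 15 (44.1%) were detected, a smaller share than among all protein-coding genes, and one gene, SPP1, made up 95.2% of their summed TPM. SPP1 (osteopontin), a secreted matrix phosphoprotein found in bile duct epithelium, was at 5774, 6585, 6554 and 7107 TPM, the 16th most abundant message of all. The bile salt and conjugate exporter ABCC3 was at 145 ± 6.32 TPM, the anion exchanger SLC4A2 at 77.7 ± 5.34 and carbonic anhydrase CA12 at 28.4 ± 0.635 TPM. SOX9, the transcription factor of bile duct cells, was at 8.31, 8.37, 10.6 and 11.2 TPM. SOX17, a factor of gallbladder development, was near 0, with a value of 0 in 3 of 4 replicates and a mean of 0.0129 TPM. The bile acid transporter SLC10A2 and the bile acid receptor NR1H4 (FXR) were at 0.00448 and 0.0234 TPM.

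Genes of the gastric and foregut mucous lineage were uneven in level. AGR2, a disulfide isomerase needed for mucin folding, was at 318, 350.0, 279 and 291 TPM. The trefoil peptides TFF1 and TFF2, which are secreted with gastric mucus, were at 31.3 ± 3.26 and 12.6 ± 0.869 TPM, ANXA10, an annexin of gastric epithelium, at 57.4 ± 0.45 and the prostate stem cell antigen PSCA at 42.4 ± 2.13 TPM. The surface mucin MUC5AC was at 7.4, 6.68, 6.05 and 7.16 TPM, whereas the gland mucin MUC6 was at 0.044 TPM. In this list, 13 of 23 members were detected (56.5%, against 62.5% of all protein-coding genes). ALDH3A1, a detoxifying aldehyde dehydrogenase of the stomach and cornea, is also in this list and held 92.9% of its summed TPM.

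Intestinal, hepatocyte and pancreatic genes were largely below detection, whereas 62.5% of all protein-coding genes were detected. For the intestine, 6 of 29 members were detected (20.7%), none at 10 TPM, with the ubiquitin ligase TRIM31 at 6.37 ± 1.1, the caudal homeobox factor CDX2 at 4.98, 6.75, 4.91 and 4.22 TPM and the galectin LGALS4 at 2.85 ± 0.328 TPM, while CDH17 and VIL1 were at 0.151 and 0.0545 TPM. For hepatocytes, 3 of 30 were detected (10%), namely GPC3 at 5.83 ± 0.531, SERPINA1 at 1.02 ± 0.194 and CPS1 at 1 ± 0.52 TPM, of which SERPINA1 and CPS1 lay at the detection level itself, and the count fell to 1 without replicate 3. Albumin (ALB) was at 0.173, 0.0865, 0 and 0.346 TPM, and FGB had 0 counts in all replicates. Of 12 pancreatic genes, 0 were detected (0%), with PTF1A and INS at 0 and PDX1 and PRSS1 at 0.0292 and 0.246 TPM. A count of 0 allows up to 3 counts per library, or 0.137 CPM (counts scaled to library size) in the shallowest replicate, and this limit covers counting error only.

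Smaller shares of the mesenchymal, neuroendocrine, immune and endothelial lists were detected than of all protein-coding genes (62.5%). Of these lists, only the neuroendocrine list had a member at 100 TPM or above. The mesenchymal list had 9 of 26 members detected (34.6%) and summed to 86.5 to 93.9 TPM. Its highest members were the calcium-binding protein S100A4 at 29.9 ± 3.98, smooth muscle actin (ACTA2) at 20.4 ± 2.44, the repressor SNAI2 (SLUG), which is also a basal epithelial gene, at 15.3 ± 1.09, fibronectin (FN1) at 9.36 ± 0.245 and TWIST1 at 5.44 ± 0.288 TPM, and the first 4 held 82.2% of the sum. COL1A1 was at 2.57 ± 0.197, vimentin (VIM) at 1.81, 1.59, 2.13 and 1.77, N-cadherin (CDH2) at 0.482 ± 0.0519 and the repressor ZEB1 at 0.19 ± 0.063 TPM. E-cadherin exceeded N-cadherin by 215 to 273 times. Among 14 neuroendocrine genes, 7 were detected (50%): the ubiquitin hydrolase UCHL1 reached 327 ± 16.4 TPM, above EPCAM, followed by the synaptic vesicle protein SYT1 at 11.3 ± 0.861 and chromogranin A (CHGA) at 8 ± 0.241, whereas SYP was at 1.33 ± 0.274 TPM and the lineage factor INSM1 was at 0. The immune list summed to 34.5 to 45.9 TPM with 2 of 18 detected (11.1%), and the lysosomal protein CD68, at 34.7 ± 4.86 TPM, made up 87.7% of that sum; MS4A1 was at 0, PTPRC at 0.0139, CD3E at 0.0649 and CD14 at 0.856 TPM. The endothelial list summed to 4.38 to 4.84 TPM with 2 of 10 detected (20%), ESAM at 1.87 ± 0.209, VWF at 1.68 ± 0.237, CDH5 at 0.7 ± 0.123, PECAM1 at 0.0891 and KDR at 0.00266 TPM.

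**Figure D1:**
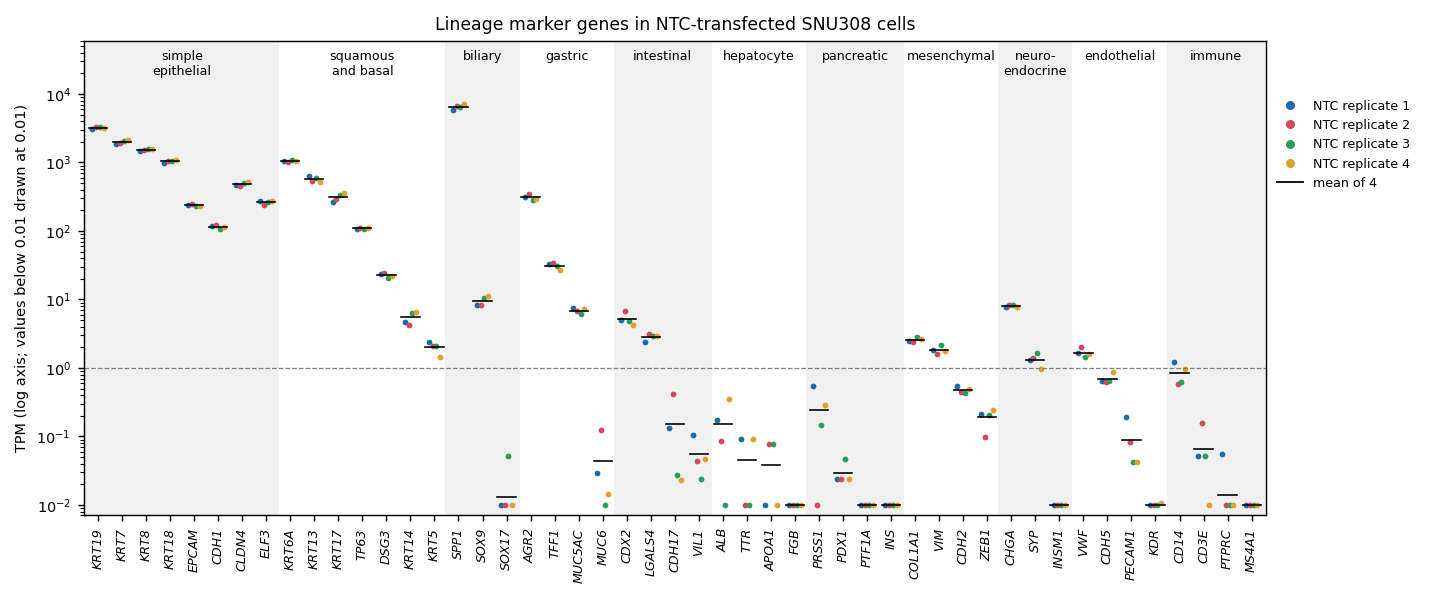
TPM (log axis) of lineage marker genes in the 4 NTC replicates, coloured by replicate, with the mean of the 4 as a bar and the detection level of 1 TPM as a dashed line; values below 0.01 are drawn at 0.01. KRT19, at 3119 to 3323 TPM, and the other simple keratins stood far above the dashed line, TP63 stood near 109 TPM beside KRT5 near 2, and the hepatocyte, pancreatic and immune markers lay mostly below 1 TPM.

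MHC class II genes, whose constitutive expression is a property of antigen-presenting cells, were detected without exception although the leukocyte marker PTPRC was at 0.0139 TPM. All 10 members exceeded 1 TPM, against 62.5% of all protein-coding genes, and 6 (60%) exceeded 10 TPM, against 38.8%. The invariant chain CD74 was at 551, 538, 576 and 596 TPM and HLA-DRA at 57.1, 59.7, 56.8 and 57.2 TPM. HLA-DPA1 and HLA-DRB1 followed at 37.6 ± 1.55 and 36.1 ± 1.54 TPM, and CIITA, the transactivator of the class, was at 6.3, 7.68, 8.22 and 7.78 TPM. The class I chain B2M was at 1355 ± 50.1 TPM, with HLA-B at 186 ± 11.1 TPM. Interferon-stimulated genes were uneven, since ISG15 was at 18.8 ± 1.3 and IFITM3 at 241 ± 9.66 TPM, while IFIT1 was at 0.868 ± 0.105 TPM. Values of single HLA genes depend on how reads were matched to the reference alleles.

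The CEACAM family is led by the gene that the series silenced in its other groups and by that gene's neighbour. CEACAM5 (carcinoembryonic antigen) lies at chr19:41708585-41730433 and CEACAM6 at chr19:41750977-41772211 (GRCh38, GENCODE 44), and both encode membrane-anchored proteins without an intracellular tail. Their promoters resemble each other. In the RefSeq promoter table (GRCh38.p14), 189 of 242 aligned bases before the start were identical (78.1%). The last 120 bases before each RefSeq start follow, on the plus strand and with bases that differ between the genes in capitals, at chr19:41708506-41708625 for CEACAM5 and chr19:41755410-41755529 for CEACAM6; they are shown because the genes lie near each other and differed in level. The RefSeq start of each gene lies inside its GENCODE span.
CEACAM5: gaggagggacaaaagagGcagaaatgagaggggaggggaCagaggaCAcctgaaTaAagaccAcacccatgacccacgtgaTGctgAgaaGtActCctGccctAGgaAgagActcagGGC
CEACAM6: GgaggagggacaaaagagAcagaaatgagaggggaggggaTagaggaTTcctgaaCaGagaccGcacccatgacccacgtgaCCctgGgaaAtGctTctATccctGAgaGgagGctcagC

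CEACAM5 averaged 856 ± 75.2 TPM and CEACAM6 301 ± 17 TPM (SD, n = 4), and the ranges did not overlap. Within each replicate CEACAM5 exceeded CEACAM6 by 2.76, 2.71, 2.95 and 2.93 times. CEACAM1, an adhesion receptor with an inhibitory cytoplasmic tail, was at 7.28, 8.29, 8.63 and 8.92 TPM, and CEACAM6 exceeded it by 35 to 38.3 times. CEACAM19 was at 1.65, 0.964, 1.01 and 1.27 TPM, just above detection by mean. Below it lay CEACAM7, a colonic member, at 0.682 ± 0.196, CEACAM3 and CEACAM8, which belong to granulocytes, at 0.235 ± 0.0732 and 0.0269, and CEACAM20 at 0.0074 TPM. CEACAM4, CEACAM16, CEACAM18 and CEACAM21 had 0 counts in all replicates. Of 12 members 4 were thus detected (33.3%, against 62.5% of all protein-coding genes), and CEACAM5 alone held 73.3% of the family's TPM. Of the 31-base stretches of CEACAM5 transcripts, 4.68% also occur in CEACAM6 and 17% in any other gene. For CEACAM6, 6.39% occur in CEACAM5 and 14.8% in any other gene.

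The 3 highest mucins, MUC20, MUC1 and MUC3A, were transmembrane members, which form the glycocalyx. MUC20 was at 152, 163, 172 and 180.4 TPM and MUC1, the cell surface mucin of ductal epithelia, at 63.9, 56.4, 65.2 and 68.3 TPM, so that MUC20 exceeded MUC1 by 2.38 to 2.89 times. MUC20 shares 36% of its stretches with other genes, mainly the transcript MUC20-OT1, so its level is less certain than that of MUC1, for which the share was 0.62%. MUC3A was at 16.6 ± 1.71 and MUC4, a partner of ERBB2, at 4.1 ± 1.01 TPM. Of the gel-forming mucins, MUC5B stood at 11.7, 7.97, 9.92 and 11.4 TPM and MUC5AC at 6.82 ± 0.594 TPM. MUC12 passed 1 TPM by mean only, with 2.08, 0.711, 0.569 and 0.913 TPM. In all, 7 of 17 mucin genes were detected (41.2%, against 62.5% of all protein-coding genes). The ranges of no neighbouring pair among these 7 overlapped. Those below were MUC19 (0.958), MUC16 (0.755), MUC15 (0.742), MUC13 (0.366), MUC21 (0.201), the intestinal MUC2 (0.187), MUC6 (0.044) and MUC22 (0.00242 TPM), with MUC7 and MUC17 at 0.

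Integrins, the heterodimeric receptors for extracellular matrix, were led by the chains that bind laminin. The list had 13 of 26 genes detected (50%, against 62.5% of all protein-coding genes). ITGA3 was at 274, 287, 327 and 338 TPM and ITGB4, the hemidesmosomal beta chain, at 251, 235, 271 and 289 TPM, and the ranges of both overlapped. ITGB1, the common beta chain, was at 135, 131, 124 and 134 TPM, and ITGA6, which pairs with ITGB4, at 50.6, 47.7, 40.5 and 43.1 TPM. ITGB4 exceeded ITGA6 by 4.93 to 6.71 times. ITGB5 was at 56.2 ± 5.58, ITGAV at 35.7 ± 2.16 and the collagen receptor chain ITGA2 at 16.1 ± 0.77 TPM. The laminin chain LAMB3, of the laminin that these receptors bind, was at 263 ± 9.88 TPM, whereas the alpha chain LAMA3 was at 25.7 ± 3.71 TPM.

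**Figure D2:**
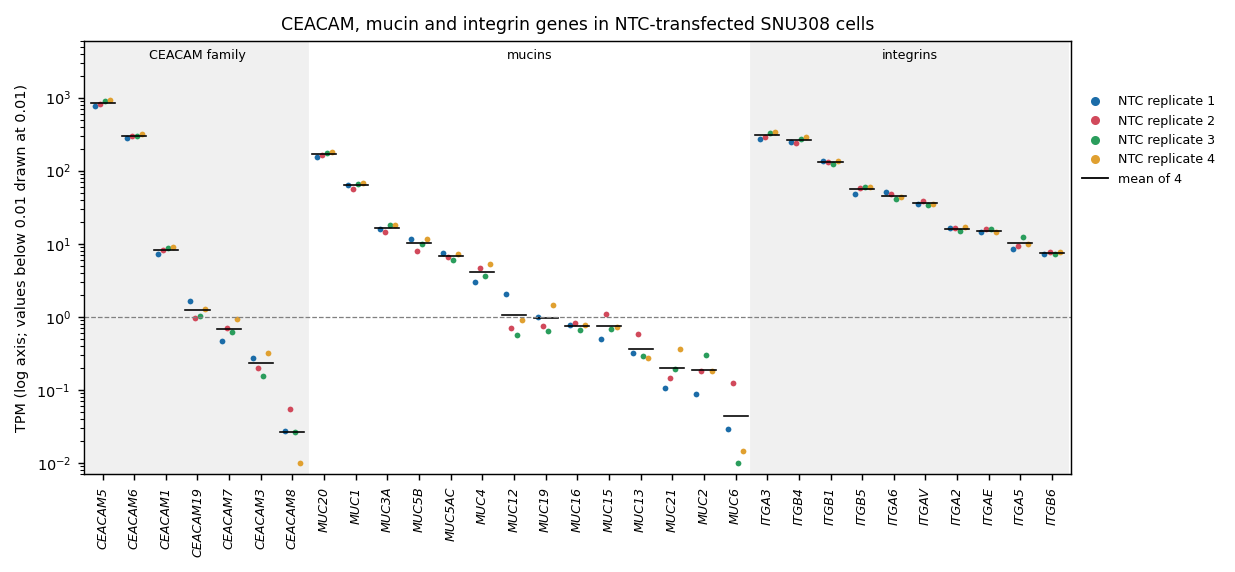
TPM (log axis) of CEACAM, mucin and the 10 highest integrin genes in the 4 NTC replicates, with the mean as a bar and 1 TPM as a dashed line. Values below 0.01 are drawn at 0.01. Genes with 0 counts in all replicates are left out, as are CEACAM20 and MUC22, whose means were above 0 but below 0.01 TPM. CEACAM5 and CEACAM6, at 769.7 to 940.1 and 279 to 321 TPM, stood apart from CEACAM1, while the mucins declined in steps from MUC20 at 167 TPM.

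Of receptor tyrosine kinases, 28 of 58 were detected (48.3%, against 62.5% of all protein-coding genes). The ephrin receptor EPHA2 led with 120.3, 121, 135 and 146 TPM, followed by the collagen receptor DDR1 at 112, 105, 104 and 109 TPM, and their ranges did not overlap with each other. EPHB4 was at 58.5 ± 0.96, the receptor of macrophage-stimulating protein MST1R at 54.9 ± 3.12 and RYK, a Wnt co-receptor, at 49.8 ± 3.36 TPM. MET, the receptor of hepatocyte growth factor, was at 45.4, 47, 47.4 and 49 TPM. EGFR was at 42.6, 42.6, 40.3 and 38.7 TPM and ERBB2 at 39.1, 39.3, 41.3 and 41.7 TPM, values whose replicates overlapped, as did those of ERBB2 and FGFR3, the latter at 38.5 ± 2.5 TPM. FGFR2, a gene altered by fusion in some bile duct cancers, was at 12.1 ± 1.23 TPM. EPHA2 exceeded EGFR by 2.82 to 3.77 times.

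Genes of secreted ligands and proteases formed a mixed list, and only some of them encode ligands of receptor tyrosine kinases. Among 65 secreted ligands and proteases, 56 were detected (86.2%, against 62.5% of all protein-coding genes). The EGFR ligand amphiregulin (AREG) was at 42.3, 42.2, 50 and 55 TPM. The iron-binding lipocalin LCN2 was at 1485, 1529, 1509 and 1512 TPM, the growth factor midkine (MDK) at 1237 ± 54, the stress cytokine GDF15 at 1186 ± 77.7 and the protease inhibitor SLPI at 621 ± 29.5 TPM. Matrix metalloproteinases were represented by the membrane-bound MMP14 at 189.8 ± 1.81 and the collagenase MMP1 at 125 ± 13.9 TPM, the Wnt inhibitor DKK1 was at 115 ± 10.2 and the alarmin IL1A at 90.9, 106, 118 and 136 TPM. The chemokine CXCL8 was at 34.8 ± 1.68 TPM.

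Cytokine, TGF-beta, Notch, Wnt and death receptors were detected in 49 of 58 cases (84.5%, against 62.5% of all protein-coding genes). TNFRSF12A, the receptor of TWEAK, led at 236 ± 17.7 TPM before TNFRSF21 at 188 ± 14.2 and the lymphotoxin receptor LTBR at 167 ± 3.36 TPM, with no overlap between neighbours in this order. TNFRSF1A, the main TNF receptor of epithelia, was at 79.3 ± 4.57 and TGFBR2 at 25.2 ± 1.16 TPM. NOTCH3 was at 68.8 ± 2.07 and NOTCH1 at 10.9 ± 0.798 TPM. The intestinal stem cell receptor LGR5 was at 0.00362 TPM.

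Nuclear receptors, transcription factors that bind small lipophilic ligands, were detected in 31 of 48 cases (64.6%), close to the 62.5% of all protein-coding genes. The retinoic acid receptor RARG was highest, at 155, 151, 158 and 154 TPM, with its dimer partner RXRA at 90.8, 86.5, 85.1 and 88.5 TPM. NR2F6 and ESRRA were at 85.2 ± 6.39 and 56 ± 2.67, PPARG, a regulator of lipid metabolism and epithelial differentiation, at 45.6 ± 2.67 and the orphan repressor NR0B1 (DAX1) at 26.3 ± 1.92 TPM. The vitamin D receptor VDR was at 21, 20.5, 21.4 and 21 TPM. Receptors that define hepatocytes were low, with HNF4A at 0.588, 0.705, 0.375 and 0.438 TPM and NR1H4 at 0.0234 TPM.

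Lineage transcription factors mixed epithelial, foregut and squamous members. Detected members numbered 44 of 60 (73.3%, against 62.5% of all protein-coding genes). Below ELF3 stood KLF5, a factor of proliferating epithelium, at 177, 173, 172 and 159.7 TPM, the differentiation inhibitor ID1 at 155 ± 5.74 and CEBPD at 138 ± 5.27 TPM. The pioneer factor FOXA1 was at 103, 91.7, 94.8 and 99.8 TPM and its relative FOXA2 at 3.76 ± 0.453 TPM. GATA6, a foregut endoderm factor, was at 19.4 ± 1.69 TPM. HES1, a Notch target, was at 78.2 ± 5.03 and ETV4, an ETS factor downstream of growth factor signalling, at 63.8 ± 2.75 TPM. TP63 exceeded FOXA1 without overlap, whereas FOXA1 and CEBPB, the latter at 96.4 ± 7.19 TPM, overlapped.

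HOX genes, which encode positional identity along the body axis, were detected in 27 of 39 cases (69.2%, near the 62.5% of all protein-coding genes). Of the 39, 0 reached 100 TPM and 7 (17.9%) reached 10 TPM, a level reached by 38.8% of all protein-coding genes. The highest were HOXC10 at 39, 33.9, 35.8 and 37.7, HOXA10 at 31.2, 34.9, 33 and 30.4 and HOXD10 at 25.5, 28.1, 26 and 29.2 TPM, which are paralogs at the same position of 3 clusters. HOXC10 and HOXA10 overlapped over the replicates. HOXA3 was at 25.7 ± 2.33, HOXD11 at 20.6 ± 0.162, HOXB7 at 20.3 ± 2 and HOXA5 at 5.24 ± 1.23 TPM.

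Transcription factors that respond to signals were detected in 54 of 57 cases (94.7%, against 62.5% of all protein-coding genes). The stress factor ATF4 was at 384 ± 10.2 TPM and beta-catenin (CTNNB1), the junction protein and Wnt effector, at 358 ± 12.7 TPM. HIF1A was at 219 ± 8.86 TPM. MYC stood at 172, 185, 191 and 190.5 TPM and the AP-1 member FOSL1 at 117, 100.3, 116 and 119 TPM. Of the JUN genes, JUND averaged 98.2, JUNB 63.7 and JUN 12.9 ± 0.563 TPM. STAT3 was at 48.4 ± 1.7 TPM. NFE2L2, which encodes the oxidative stress factor NRF2, was at 118, 115, 106 and 108 TPM.

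Oncogenes of biliary tract cancer were detected in 41 of 45 cases (91.1%, against 62.5% of all protein-coding genes). GNAS, the stimulatory G protein subunit, was highest at 512 ± 23.1 TPM. MAP2K2 was at 221 ± 8.25 and IDH1, a metabolic enzyme, at 201 ± 14.6 TPM. The cyclin CCND1 was at 174, 166, 163 and 173 TPM. Its kinase partner CDK4 was at 169, 177, 169 and 157 TPM and overlapped with it, while CCND2 had 0 counts. Mutations were not analysed here, and an RNA level does not show the activity of these kinases and GTPases.

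Tumour suppressors were detected in 48 of 50 cases (96%, against 62.5% of all protein-coding genes). CDKN2A, the locus of the INK4A and ARF proteins, was highest at 354, 397, 441 and 418 TPM. BAP1 was at 75.6 ± 2.76 and the cell cycle inhibitor CDKN1A at 69.8 ± 9.39 TPM. KEAP1, the adaptor that marks NRF2 for degradation, was at 59.5 ± 2.43 TPM. ARID1A, a subunit of the SWI/SNF chromatin remodeller, was at 29 ± 1.01 and SMAD4 at 16 ± 1.07 TPM. The members below detection were DLC1, at 0.921, 0.839, 0.869 and 0.633 TPM, and ARID2.

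ARID2, a subunit of the PBAF form of the SWI/SNF remodeller, was almost without reads. It stood at 0, 0.0369, 0 and 0.0369 TPM, with 0 to 2 estimated counts per replicate, and 0.497% of its 31-base stretches occur in other genes. ARID2 lies at chr12:45729706-45908040 (GRCh38), and its neighbours were looked at after its value was seen. From PUS7L to ARID2, 8 protein-coding genes in a row, over 2189 kb, had means below 0.1 TPM and 70 estimated counts in all over the 4 replicates. In this row were PUS7L, an RNA pseudouridine synthase homologue, at 0.0527, IRAK4, the kinase of Toll-like receptor signalling, at 0.00718, TWF1 (twinfilin), an actin monomer-binding protein, at 0.01 and the lipid scramblase ANO6 at 0.0627 TPM, with TMEM117, NELL2 and DBX2 at 0.

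The gene that follows ARID2, the splicing-associated SCAF11, was at 43.2, 40, 32.5 and 37.2 TPM, and the amino acid transporters SLC38A1 and SLC38A2 after it were at 57.7 ± 4.11 and 162 ± 17.7 TPM. On the other side, ADAMTS20 and PRICKLE1 were at 0.419 ± 0.0987 and 0.204 ± 0.0603 TPM and ZCRB1 at 92.7 ± 1.17 TPM. Low genes were common, since 24.3% of 19879 protein-coding genes had means below 0.1 TPM. Of 2555 rows of such genes, most were shorter and 64 were at least as long, the longest with 49 genes. DNA copy number was not measured, and the cause of the low values was not tested.

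**Figure D3:**
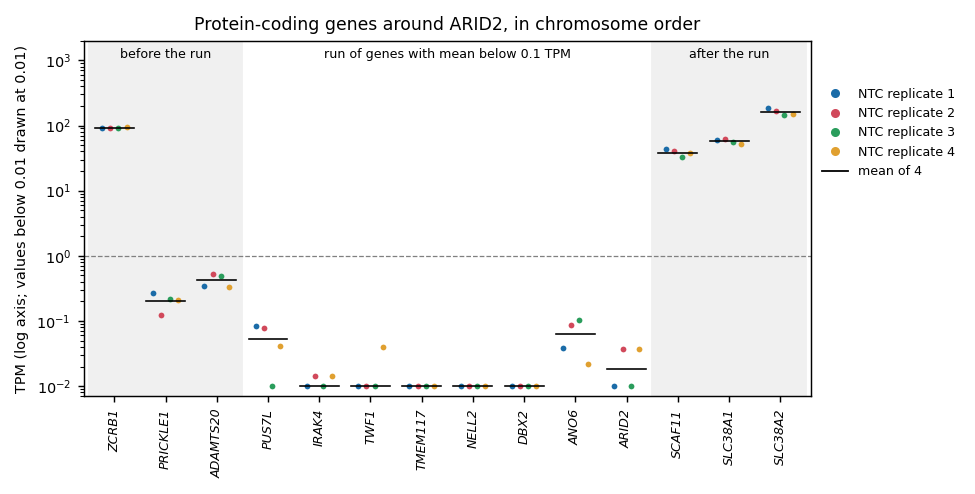
TPM (log axis) of protein-coding genes in chromosome order around ARID2 in the 4 NTC replicates, with the mean as a bar and 1 TPM as a dashed line; values below 0.01 are drawn at 0.01. The 8 genes from PUS7L to ARID2 lay near the bottom of the axis in every replicate, and SCAF11, next to ARID2, was at 32.5 to 43.2 TPM.

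Surface antigens that are studied as targets of antibodies were detected in 27 of 34 cases (79.4%, against 62.5% of all protein-coding genes). CEACAM5 was the highest by mean, and the tetraspanin CD9 was at 739 ± 7.64 TPM. Basigin (BSG) was at 661 ± 8.38, LY6E at 379 ± 24.1 and the hyaluronan receptor CD44 at 349 ± 7.49 TPM. Mesothelin (MSLN) was close to the detection level at 1.31, 1.05, 1.53 and 1.52 TPM, as was the checkpoint ligand CD274 (PD-L1), at 0.782, 2.06, 0.737 and 1.15 TPM.

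Genes of xenobiotic metabolism and of the NRF2 response held more TPM than any other of the 31 gene lists examined. NRF2 is released from KEAP1 under oxidative or electrophilic stress and drives genes of glutathione synthesis, quinone and aldehyde reduction and the pentose phosphate pathway through antioxidant response elements. Detected were 27 of 28 genes (96.4%, against 62.5% of all protein-coding genes), with a median of 261 TPM against 4.48 TPM. Of the 28 genes, 10 were above 1000 TPM, as were 132 of all 60617 genes. The list summed to 32420.1, 33666, 31559 and 31547 TPM, or 3.23% of the transcriptome. The 18 reference genes, a shorter list, summed to 22120.3 to 23054 TPM but had a higher median, 761 TPM.

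ALDH3A1 was the highest nuclear message after the ferritin chains, at 6878, 7528, 7518 and 7617 TPM, and exceeded GAPDH in every replicate by 1.65 to 1.86 times. The aldo-keto reductases, which reduce carbonyl compounds and steroids, followed, with AKR1B10 at 3537 ± 304 TPM, AKR1C1 at 3499 ± 292, AKR1C3 at 2614 ± 142 and AKR1C2 at 1682 ± 117 TPM. AKR1C1 and AKR1C2 share much sequence, 45.6% of the stretches of AKR1C2 transcripts occurring elsewhere, so the division between these paralogs is uncertain. For AKR1C3 the share was 8.29%. As a sum, AKR1C1, AKR1C2 and AKR1C3 came to 7344 to 8444 TPM. GPX2, an epithelial glutathione peroxidase, was at 3037, 2972, 3058 and 2987 TPM and GSTP1, a glutathione transferase, at 2764, 2704, 2759.9 and 2706 TPM. NQO1, the quinone reductase, was at 2301, 2474, 2219 and 2275 TPM.

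The glutathione synthesis subunits GCLM and GCLC were at 1139 ± 81.2 and 311 ± 22.5 TPM, and thioredoxin reductase TXNRD1 at 615 ± 27.8 TPM. HMOX1, the heme oxygenase that NRF2 shares with other stress factors, was far lower at 20.5, 21.3, 20.5 and 19.7 TPM, and the drug efflux pump ABCB1 was below detection at 0.51, 0.068, 0.0957 and 0.034 TPM. The ferritin chains, which store iron, are also known targets of NRF2. FTL was at 18526, 17850.3, 18383 and 18253 TPM. FTH1 was at 17727, 16166, 15649 and 15413 TPM, and both chains together held 3.37% to 3.63% of all TPM. Of the 31-base stretches of FTH1 transcripts, 63.6% also occur in other genes, foremost BEST1, which was at 0.421 TPM.

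The promoters of 20 listed genes were in the RefSeq table (each 250 bases before to 50 after the start, GRCh38.p14), and 4 of them (20%) held the core of the antioxidant response element, TGACNNNGC, on either strand. Over 27305 promoters the share was 13.6%, and over those of genes at 1000 TPM or more 17.4%, so the share among the listed genes was near the background and is given as a description. A match is not a measured binding site, and elements outside this window were not looked at. The 4 matches are shown with 26 bases on each side, 5′ to 3′ on the strand of the gene and the core in capitals, because they belong to genes whose levels are given here; TXNRD1 held 2 cores, of which 1 is shown. GCLM lies at chr1:93909430-93909490 (minus strand), GSTP1 at chr11:67583720-67583780 (plus), TXNRD1 at chr12:104215654-104215714 (plus) and GPX2 at chr14:64942833-64942893 (minus); in GCLM and GPX2 the core reads on the opposite strand.
GCLM: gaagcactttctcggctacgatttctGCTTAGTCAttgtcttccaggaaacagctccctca
GSTP1: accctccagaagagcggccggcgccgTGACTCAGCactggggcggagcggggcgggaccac
TXNRD1: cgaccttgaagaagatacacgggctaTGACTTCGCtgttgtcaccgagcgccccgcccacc
GPX2: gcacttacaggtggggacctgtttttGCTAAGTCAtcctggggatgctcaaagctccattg

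**Figure D4:**
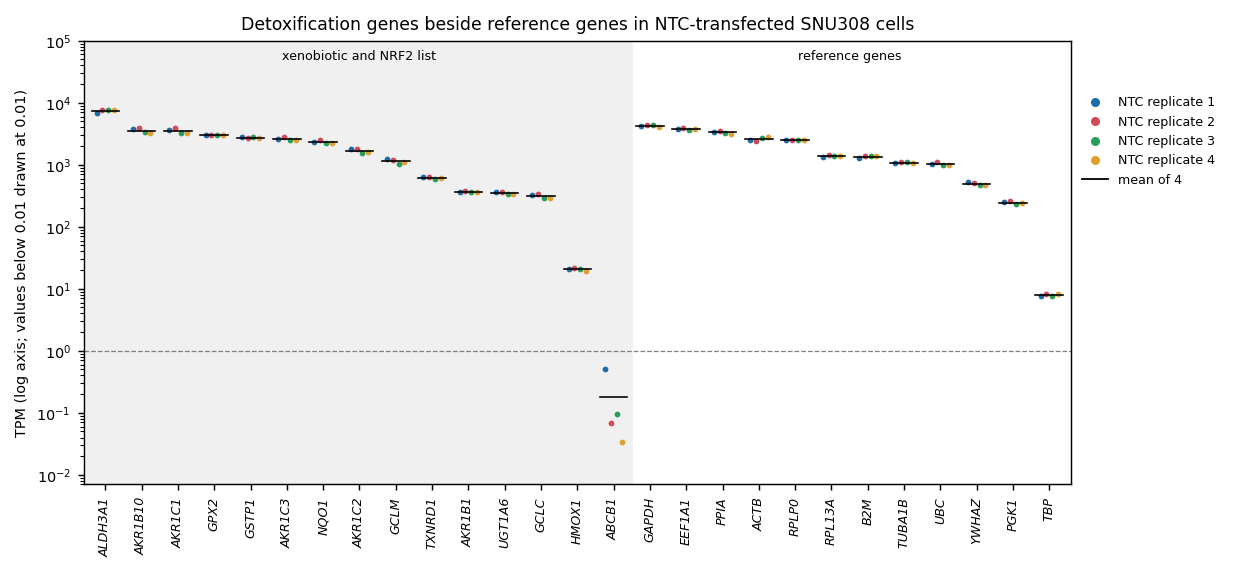
TPM (log axis) of genes of xenobiotic metabolism and the NRF2 response beside reference genes in the 4 NTC replicates, with the mean as a bar and 1 TPM as a dashed line. ALDH3A1, at 6878 to 7617 TPM, stood above GAPDH, at 4102 to 4445 TPM, while ABCB1 lay below 1 TPM.

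Proliferation genes were detected without exception, all 25 at 10 TPM or more, a level reached by 38.8% of all protein-coding genes. UBE2C, a ubiquitin enzyme of mitotic exit, was at 177, 176, 178 and 177 TPM, the replication helicase subunit MCM7 at 141 ± 6.83, PCNA at 76 ± 5.72, TOP2A at 39.7 ± 2.18 and MKI67 at 10.7 ± 1.28 TPM. Glycolysis was led by GAPDH at 4262 ± 158 and ALDOA at 2162 ± 22.5 TPM. LDHB exceeded LDHA, at 531, 568, 488 and 483 against 312, 327, 295 and 305 TPM. The hypoxia target CA9 was at 0.231, 0.43, 0.0947 and 0.0483 TPM, below detection, beside SLC2A1, the glucose transporter GLUT1, at 240.0 ± 4.85 TPM.

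The 25 highest genes held 30.7% of all TPM, and 14 of them were mitochondrially encoded. MT-CO2, a cytochrome c oxidase subunit, led at 35657, 35701, 39590.3 and 36748 TPM, followed by MT-CO1 at 26275 ± 968 and MT-CO3 at 25358 ± 336 TPM. Many mitochondrial stretches recur in nuclear pseudogenes, 66.7% for MT-CO1, and 1 pseudogene, MTATP6P1, was itself listed at 2213 TPM. After the ferritins, ALDH3A1, SPP1, RPL41 (6281 ± 329.8 TPM) and GAPDH came EEF1A1 at 3791 ± 130.5, the short RNA BCYRN1 at 2634, 4029, 4334 and 3752, the long non-coding RNA ENSG00000283907 at 2587, 2671, 3959 and 5276 and the chaperone HSPB1 at 3590.2 ± 195 TPM. BCYRN1 and ENSG00000283907 varied more between replicates, with CVs of 20.1% and 35%, than KRT19 with 3.19%.

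The spread between replicates depended on level. Among the 7721 genes of 1 to 10 TPM the median CV was 15.6%, against 10.5% from counting error alone, and 2885 (37.4%) had a CV over 20%. Among 8162 genes of at least 10 TPM the median CV was 6.17%, against 3.05% from counting error alone, and 4239 of them exceeded 2 times their counting error. Above 1000 TPM the median was 4.13%. A CV over 20% was found for 148 of the genes of at least 10 TPM (1.81%). Of these 148, 65 were protein-coding (43.9%), whereas 7720 of all 8162 genes of at least 10 TPM were. SSX2 and SSX2B, cancer-testis genes, were among the 15 most variable, and all 1510 distinct 31-base stretches of SSX2 also occur in SSX2B. SSX2 was at 11.9, 35, 11.9 and 32 TPM and SSX2B at 40.3, 12.6, 34.5 and 10.1 TPM, each high where the other was low, while their sum stayed between 42.1 and 52.2 TPM.

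Small RNAs that are made without a poly(A) tail also varied. RMRP was at 8.33, 12.7, 8.5 and 36.5 TPM, RN7SK at 22.3, 27.7, 47.9 and 89.1, RPPH1 at 6.67, 7.54, 7.99 and 20.7 and RN7SL2 at 43.3, 39.9, 65.3 and 130.2 TPM, and each was highest in replicate 4. Other genes with large CVs were the pseudogenes RPL21P16 (3.04, 66.4, 71.1 and 57 TPM) and SRP9P1 (51.1% CV), the antisense RNA ZFHX3-AS1 (10.2, 4.63, 15.6 and 22.2 TPM) and short RNAs of few counts such as MIR200B, with 2 to 13 counts. At the other end, DCP1A, a decapping factor, was at 13.5, 13.5, 13.4 and 13.5 TPM (CV 0.333%), and SUOX, RAB37, UBE2C, BCL7C, CERS5, CIT, ZCCHC9 and RABL6 had CVs of 0.362% to 0.491%; the CV of each gene named here lay under the counting error of its own counts, as the lowest of 8162 values may.

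**Figure D5:**
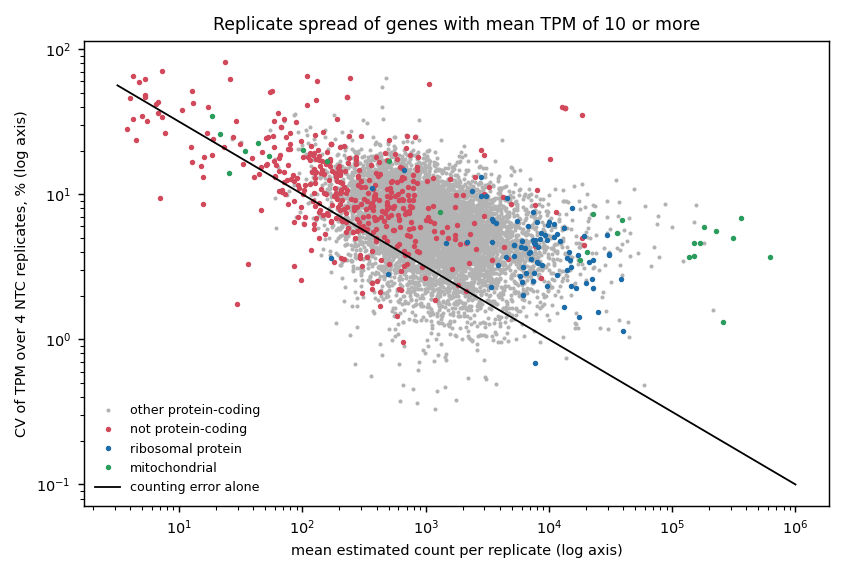
CV of TPM over the 4 NTC replicates (log axis, percent) against mean estimated count (log axis) for 8162 genes of at least 10 TPM, coloured by class; the line is the CV that counting error alone would give. The median CV was 6.17% against 3.05% from counting. Of the 148 genes with a CV over 20%, 65 were protein-coding, against 7720 of all 8162 genes drawn.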

How the data were processed

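Oligo dT selection of SNU308 RNA preceded DNBSEQ sequencing. For the reads, the labels give stranded pairs of 100 bases, and for the transfection Oligofectamine; the methods give shorter single-end reads and RNAiMAX, and this difference could not be settled from the gene values. Per the labels, the authors used Trim Galore 0.6.4, kallisto (given as version 0.4.6) and GRCh38.p13; the GENCODE release and the summing of transcripts to genes are not given in the sources used here. The authors deposited TPM per gene, which is scaled for length and depth within a sample. The authors also deposited estimated counts, not normalised, which served here for depth and counting error alone and were not rounded because no test was run on them. Kallisto divides reads that fit several transcripts by estimation.

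Means, SDs (n = 4) and CVs were computed from the deposited TPM with Python 3.11.15 and pandas 2.3.3, without filter or pseudocount, and the calculation was tested on simulated data. The knockdown samples were not used here. Of 60617 identifiers, 60357 (99.6%) had a symbol in GENCODE 44, which is on the same genome build. An order of genes was called separate only where their 4 values did not overlap. Shared sequence is the share of distinct 31-base stretches of a gene's GENCODE 44 transcripts, on both strands, found in any other gene. Promoter sequences came from RefSeq (GRCh38.p14), and those of CEACAM5 and CEACAM6 were aligned end to end with Biopython 1.88.

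The sample rule and the 31 gene lists were chosen with earlier results of these data known. Named were the 25 highest genes, the defining and the 10 highest members of each list, all CEACAM and mucin genes, and, at 10 TPM or above, the 15 largest and 10 smallest CVs. Genes outside this rule (KRT6 paralogs, IVL, SPRR1A, EVPL, PPL, SLC10A2, LAMA3, HMOX1, the neighbours of ARID2, cancer-testis genes and others) were named after their values were seen, and some genes that the rule names are not reported here. Alternatives were leaving out each replicate, removing mitochondrial genes, other thresholds, the median, median-of-ratios scaling and CPM.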

Additional observations from a re-analysis of the deposited data

Results flagged for a closer look

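Of 289 values set out over the 4 replicates (226 genes at 1 TPM or above, 31 list sums and 32 other values), 15 (5.19%) had a replicate whose gap to the nearest other, divided by the whole range, exceeded Dixon's 95% limit. Chance flags about 1 in 20 independent groups. These values are not independent, since list sums and ratios hold genes that are also counted singly. Some genes, such as RMRP and RPPH1, were named for a large CV in the same replicates. The number can therefore not be judged against that rate. Replicate 4 was the separate one in 6 cases, replicate 1 in 4, replicate 2 in 3 and replicate 3 in 2.

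In replicate 4, CLDN1 was high at 192.7 TPM against 176.6 to 178.0 in the others. LAMB3 was high there at 277.9 TPM and ESRRA at 59.99 TPM, while KEAP1 was low at 55.8 TPM. The non-polyadenylated RNAs RMRP, at 36.5 TPM against 8.33 to 12.7, and RPPH1, at 20.7 TPM against 6.67 to 7.99, were also highest in replicate 4. In replicate 1, ALDH3A1 was low at 6878 TPM against 7518 to 7617, and with it the summed gastric and foregut mucous list at 7456 TPM. B2M was low there at 1280 TPM, and the ferritin chains were high at 3.63% of TPM. In replicate 2, HLA-DRA was high at 59.7 TPM and GAGE1 at 244.8 TPM, and HES1 was low at 70.6 TPM. In replicate 3, MDK was high at 1318 TPM and EVPL at 19.7 TPM.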

How the results depend on the processing

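The number of genes at 1 TPM or above (15883) was 15791 to 15940 when each replicate was left out in turn, and the number of distinct list members detected (641 of 918) was 637 to 641. Rescaling without mitochondrially encoded genes gave 16834 genes, a minimum of 0.5 TPM 18656, a minimum of 2 TPM 13549 and 1 TPM in every replicate 14425. The median CV of 6.17% was 5.61% to 5.97% with 1 replicate left out, 5.85% with median-of-ratios scaling and 8.94% over genes of at least 1 TPM. The number of genes that hold the larger part of all TPM was 149, and 147 to 152 with 1 replicate left out. It moved to 399 without mitochondrially encoded genes, which hold much of the TPM, and to 681 by CPM, which is not divided by transcript length. By CPM, 17 of the 25 highest genes were the same. Without mitochondrial genes all other levels are 1.31 times as high, and 218 of 268 named means moved by over 1 SD. Counts of detected members changed by over 1.5 times only in short or nearly empty lists: the hepatocyte list fell from 3 to 1 without replicate 3, at 2 TPM, or with 1 TPM in every replicate, the immune list went from 2 to 4 at 0.5 TPM and 1 at 2 TPM, and the endothelial list from 2 to 0 at 2 TPM.

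No paired analysis was possible because the description compares no groups and rests on no test. All 4 samples came from 1 line, gene levels near 1 TPM rest on few reads, and no DNA, protein or untransfected cells were measured here. Levels of genes that share sequence with paralogs or pseudogenes depend on how reads were divided among them.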

Other observations

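Cancer-testis antigens, genes normally expressed in the male germ line and studied as tumour antigens, were looked at after their values were seen. Of 62 MAGEA, MAGEB, MAGEC, GAGE, SSX, CTAG, PAGE, XAGE and PRAME genes, 19 (30.6%) were at 1 TPM or above, against 62.5% of all protein-coding genes, and 5 (8.06%) at 100 TPM or above, against 5.81%, while 22 were at 0. GAGE2A was at 519, 611, 565 and 559 TPM in replicates 1 to 4, GAGE1 at 209 ± 23.9, CTAG2 at 227, 209, 232 and 216, MAGEA3 at 95.9, 102, 95.9 and 93.3 and MAGEA6 at 73.3 ± 3.79 TPM. PRAME was at 19.2 ± 1.6 and MAGEB2 at 49.9 ± 0.975 TPM, both with few shared 31-base stretches (0.528% and 2.28%). In contrast, 93.8% of the stretches of GAGE2A and 71.4% of those of MAGEA3 recur in other genes, so the summed GAGE level, 1049 to 1242 TPM, and the summed MAGEA level, 287 to 313 TPM, are firmer than those of single copies. MAGEA4 was at 0 TPM.

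Among the 40 highest nuclear protein-coding genes outside the ribosomal proteins, a set added after the values were seen, several were in none of the lists. S100A2, a calcium-binding protein of basal epithelium, was at 2861, 2882, 2772 and 2732 TPM, the autophagy receptor SQSTM1 at 2681 ± 159.7, the ion transport regulator FXYD3 at 1993 ± 91.2 and the water and glycerol channel AQP3 at 1211, 1174, 1429 and 1519 TPM. TKT, an enzyme of the pentose phosphate pathway, was at 1750.0 ± 69.2 and thioredoxin (TXN) at 1406 ± 84.3 TPM.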
